A study of Triticum aestivum and Triticum urartu with 56 samples.

Results

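The genes described here are the expressed predicted targets of the enhancer-like elements (ELEs) of RLG_famc7.3, a subfamily of transposable elements in common wheat. The study plots 318 target genes by identifier, and 250 of them had a mean of at least 2 FPKM (fragments per kilobase of gene and per 1000000 mapped fragments) over 7 spike RNA-seq libraries. These 250 members were taken from 107891 genes in the files, of which 37290 passed the same minimum. Members were therefore chosen by the mean of the spike values, and the study had chosen its targets by distance to an ELE, correlated CAGE (cap analysis of gene expression) signal and a score of regulatory potential. The member closest above the minimum, TraesCS3A02G330200, had a mean of 2.04 FPKM, and the closest listed gene below it, TraesCS1A02G076700, had 1.93 FPKM. Expression in spike, root and embryo, position, the knockdown of the ELE-RNA and start-site signals were examined.

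The spike libraries were made from booting-stage spikelets (Feekes stage 10) and comprised 3 CK libraries and 4 lines labelled RLG_7.3_enh_RNAi that carry an RNA interference construct against 1 RLG_famc7.3 ELE-RNA. CK is labelled wild type, as in the study's methods, while its results call CK transgenic negative controls, so whether CK carried a transgene is not settled here. The labels give the cultivar Fielder and the study's methods JW1, and the 4 lines were primary transformants (T0), so each line is its own transgenic line. Root (9 days in nutrient solution) and immature embryo (14 days post anthesis) were each represented by 1 RNA-seq library of the cultivar Chinese Spring. The CAGE libraries were also of Chinese Spring and comprised 4 of seedlings and 2 of roots at 9 days, 2 of booting-stage spikelets and 3 of immature embryos. For all Chinese Spring libraries used here, the source and tissue labels name seedlings of another age, and the title and the age label, which match each other, were followed. Histone peak lists came from booting-stage JW1 spikelets (Feekes stage 10), 1 sample of ChIP-seq (chromatin immunoprecipitation sequencing) for each of 2 marks. Tissue and cultivar cannot be told apart between spike and the other tissues, and no test was made across them. Nothing used here says that the CK libraries came from separately grown plants, so p-values measure the spread between these libraries.

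Common wheat carries 3 related subgenomes, named A, B and D, which came from separate diploid ancestors. Long terminal repeat retrotransposons copy themselves through an RNA intermediate, and Gypsy elements such as the RLG families make up a large part of the intergenic DNA. Where such an element carries open chromatin and active histone marks, it can start short noncoding transcripts, as enhancers do in animals, and genes at a distance are then predicted as its targets from proximity and shared expression.

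The knockdown construct was built from adjoining wheat sequences downstream of an ELE start site on chromosome 5A, and both are shown because every comparison of RNAi lines with CK rests on them. Region 1 lay at chr5A:119548414-119548613 and region 2 at chr5A:119548604-119548803 of IWGSC RefSeq v1.0, with the strand not given in the sources used here. The letters are those of the study's construct listing, and capitals mark where its primer pair for a methylation assay at this element lies.
region1: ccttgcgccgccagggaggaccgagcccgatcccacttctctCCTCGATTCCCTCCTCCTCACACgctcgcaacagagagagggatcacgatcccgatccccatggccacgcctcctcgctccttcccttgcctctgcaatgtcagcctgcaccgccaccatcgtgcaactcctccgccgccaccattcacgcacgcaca
region2: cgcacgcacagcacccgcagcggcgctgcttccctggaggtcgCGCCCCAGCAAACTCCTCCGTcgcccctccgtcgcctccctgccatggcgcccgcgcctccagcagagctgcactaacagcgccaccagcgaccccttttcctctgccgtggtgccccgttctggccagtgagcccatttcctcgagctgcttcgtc
Both regions were 200 bases long and shared 10 bases at their junction. Their GC content was 64.5% and 69.5%, and each held 1 CATG, the recognition letters of the enzyme NlaIII used in that assay. Only the CATG of region 1 lay between the marked primers, and that of region 2 lay beyond them. No annotation of this locus was used here.

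Depth differed between the libraries. Reads recovered from the FPKM values numbered 2492517, 4176985 and 8395300 on genes in CK replicates 1 to 3, and between 7215697 and 9850061 in the RNAi lines. The root and embryo files held 20705861 and 33911272 counts on genes, of which 138477 and 157581 fell on members. CK replicate 2 stood apart, with a median correlation of 0.667 with the other spike libraries (0.77 to 0.876 for the others) and FPKM values that summed to 293545 against 534290 to 589114. Levels are therefore given as TPM (transcripts per 1000000, computed with the recovered gene lengths), in which every library has the same total, and knockdown tests on the deposited FPKM are set beside the TPM result. Actin, TraesCS1A02G274400, a gene of the cytoskeleton, had 35.6, 23.2 and 29 TPM in CK, 95.7 TPM in root and 67.8 TPM in embryo.

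Most members were detected in root and embryo. Under 1 TPM were 14 of 250 members in root and 24 in embryo, beside 5475 and 6055 of 37270 expressed genes. A smaller share of members than of all expressed genes was higher in spike than in root. By a 2-fold rule on TPM + 1, 62 of 250 members (24.8%) were higher in the mean of CK spikes than in root, against a background of 32.7% of the 37270 expressed genes with a recovered length. Root exceeded spike in 38 members (15.2%, background 13.2%), and 90 members (36.0%, background 39%) were higher in spike than in embryo. Embryo exceeded spike in 34 members (13.6%, background 10.9%). Spike exceeded both other tissues in 51 members (20.4%, background 25.4%), was below both in 12 (4.8%, background 4.08%) and lay within 2-fold of both in 98 (39.2%, background 37%). These shares compare 1 root and 1 embryo library with 3 spike libraries and describe those libraries. In such bulk tissue, fewer cells of a type and less RNA per cell cannot be told apart. The tissue labels could not be checked against defining markers, since no table used here names these gene identifiers.

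The median member was level between spike and root. The median log2 ratio of spike to root was 0.00 over members and 0.28 over all expressed genes, and the median ratio of spike to embryo was 0.42 and 0.56. Root stood higher against embryo in members, with a median log2 ratio of 0.32 against 0.08, and 69 members (27.6%, background 20.5%) were at least 2-fold higher in root than in embryo. Embryo was at least 2-fold higher than root in 27 members (10.8%, background 12.6%). Of 12517 expressed A-subgenome genes 33.6% were higher in spike than in root, as were 32.5% of 1371 expressed genes that neighbour a member on its chromosome.

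**Figure D1:**
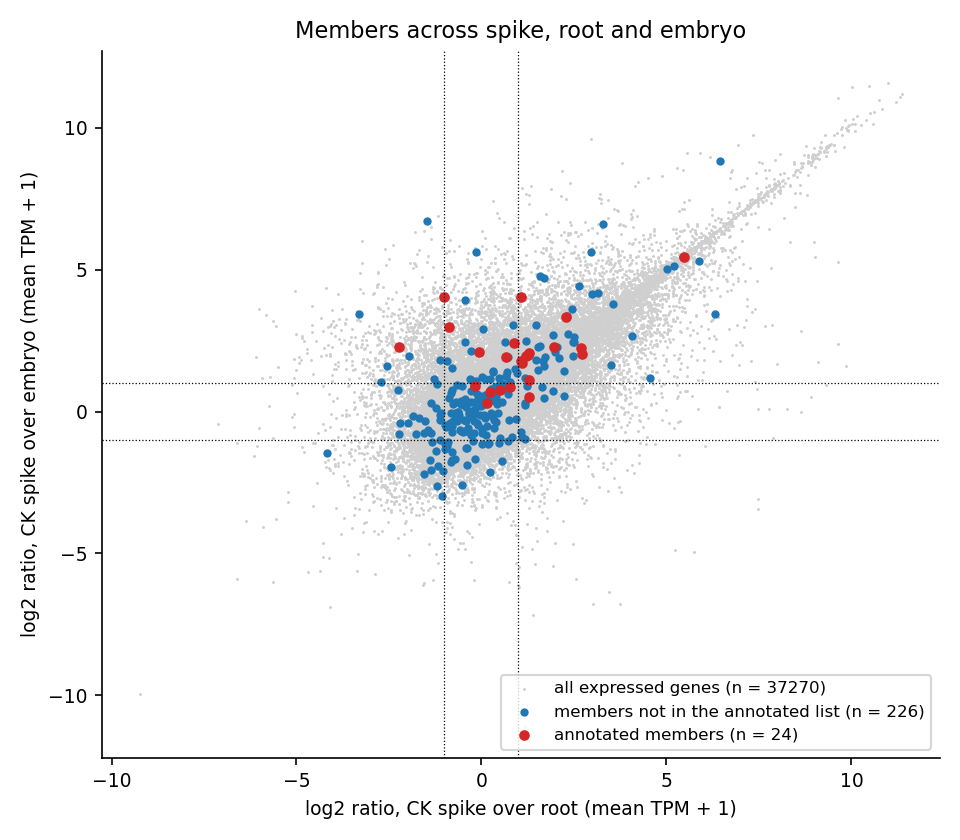
Log2 ratio of mean CK spike TPM + 1 to root (x axis) and to embryo (y axis) for 37270 expressed genes (grey), 226 members outside the study's annotated list (blue) and 24 annotated members (red); dotted lines mark 2-fold. Most blue points lie within the cloud of expressed genes around 0, and no red point lies below the lower dotted line on the y axis.

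**Figure D2:**
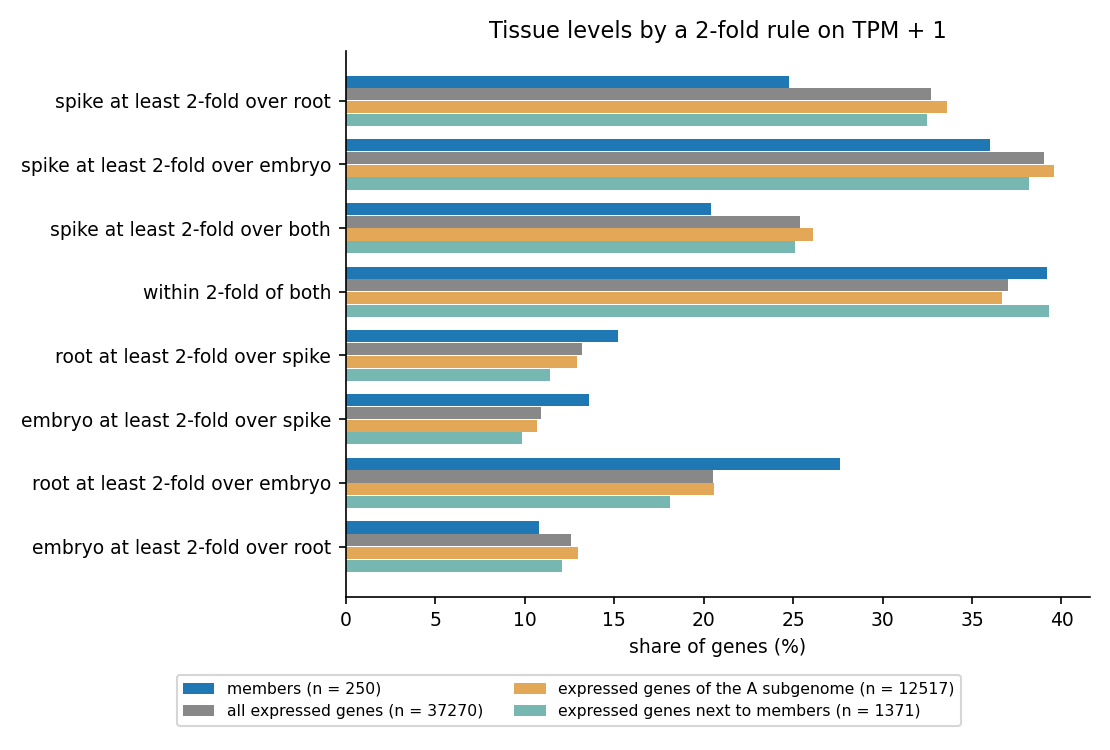
Share of genes (x axis, percent) that met each 2-fold rule on TPM + 1, for 250 members, all expressed genes, those of the A subgenome and those within 1000 identifier numbers of a member. The member bar is shorter for spike over root (24.8%) and longer for root over embryo (27.6%).

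The highest of the 3 tissues was spike in 99 members (39.6%, background 48.6%), root in 88 (35.2%, background 29.4%) and embryo in 63 (25.2%, background 22%). When root was read against the range of the 3 CK libraries, it lay below all of them in 64 members (background 36.5%) and above all of them in 84 (background 29%). Embryo lay below all CK libraries in 103 members (background 44.5%) and above in 71 (background 23.5%). The summed level of members was 7087, 6832 and 8110 TPM in CK, 6567 to 7564 TPM in the RNAi lines, 7743 TPM in root and 4749 TPM in embryo. One gene, TraesCS3A02G230000, made up 17.6%, 9.7% and 28.7% of the CK sums and 0.2% of the root sum. Without it, members summed to 5841, 6168 and 5784 TPM in CK, 7728 TPM in root and 4747 TPM in embryo.

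On the scale of TPM + 1, which lowers the ratios of genes near 0, the largest ratios of CK spike to the higher of root and embryo were found in TraesCS3A02G230000 and TraesCS6A02G161600. TraesCS3A02G230000, which the sources used here do not annotate, had 1246, 663 and 2326 TPM in CK, 15.2 TPM in root and 2.12 TPM in embryo. Its level in the RNAi lines was 325, 203, 813 and 2168 TPM, so the lines spanned a wider range than the CK libraries and overlapped with them. TraesCS6A02G161600, annotated with the domains of a subtilisin-type serine peptidase, an enzyme family that cleaves proteins in the cell wall and secretory route, had 81.1, 37.3 and 15 TPM in CK. It had 1 count in root and 2 in embryo, which puts the CK mean 1472-fold over root (264 to 58141 by the exact Poisson interval of that count) and 1290-fold over embryo (357 to 10648). The RNAi lines lay below every CK library, at 0.39, 0.75, 11.1 and 6.19 TPM.

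The smallest such ratios were found in TraesCS4A02G245100 and TraesCS2A02G153300, neither annotated here. TraesCS4A02G245100 had 41.8, 41.2 and 86.3 TPM in CK, 157 TPM in embryo and 1047 TPM in root, a log2 ratio of spike to root of -4.19. TraesCS2A02G153300 had 17, 8.42 and 11.4 TPM in CK and 130 TPM in root, but 0.22 TPM in embryo. Both were above every CK library in root, and only the first was also above them in embryo.

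No count was found for 5 of 250 members in root and for 8 in embryo, beside 2086 and 1869 of 37270 expressed genes. TraesCS7A02G108600, named after its values were seen, had 54.4, 23.2 and 49.7 TPM in CK, 20.1 to 60.1 TPM in the RNAi lines and 0 counts in root and embryo. With 3 counts per library as the limit of a count of 0, its CK mean was at least 221-fold higher than root and at least 387-fold higher than embryo. Of the other members without a count in a tissue, TraesCS5A02G279700 (33.3, 70.3 and 69.2 TPM in CK) was at least 243-fold higher in CK than in root. These limits cover counting error only.

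The study pairs 63 genes with Arabidopsis or rice matches or protein domains, 42 of which are among its plotted targets and 24 among the members. That list was drawn up from genes reduced in these same RNAi libraries, so their spike levels and their knockdown values are given as descriptions. Of the 24, 13 were at least 2-fold higher in CK spike than in root, 2 were lower, and 18 were higher and 0 lower than embryo. Over all expressed genes these shares were 32.7%, 13.2%, 39% and 10.9%, the background for the role groups too. The median log2 ratio to root was 1.07 and to embryo 2.00, against -0.13 and 0.30 over the other 226 members.

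This contrast was smaller without CK replicate 2. That library was the highest of the 3 CK libraries for 18 of the 24 annotated members (75%), against 87 of the other 226 members (38.5%) and 39.8% of expressed genes. With CK replicates 1 and 3 alone, 7 of the 24 were at least 2-fold higher in spike than in root and 15 than in embryo, with medians of 0.32 and 1.25. Against the mean of the RNAi lines, 4 were higher in spike and 7 in root. Of the other 226 members, 49 were higher in spike than in root with that library and 51 without it.

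Membrane transport was represented by 4 annotated members, of which 2 were at least 2-fold higher in CK spike than in root and all 4 than in embryo. TraesCS4A02G081100, matched to VHA-A2 and VHA-A3, which in Arabidopsis are subunits of the vacuolar proton pump, had 75.8, 348 and 49.1 TPM in CK, 74.5 TPM in root and 45.5 TPM in embryo. Only CK replicate 2 stood clear of root, while replicates 1 and 3 were near root and embryo. The polyamine transporter match TraesCS5A02G073000 (PUT5 in Arabidopsis, OsPUT2 in rice) had 14.2, 3.48 and 7.3 TPM in CK, 8.82 TPM in root and 1.2 TPM in embryo, so all CK libraries were above embryo and root fell among them. TraesCS6A02G194800, with a domain of NIPA magnesium transporters, had 38.2, 122 and 25.9 TPM in CK, 33.3 TPM in root and 10.8 TPM in embryo. TraesCS7A02G267800, with a domain of the solute carrier family 35, had 14.4, 16.9 and 5.66 TPM in CK, 4.77 TPM in root and 2.42 TPM in embryo, which placed both other tissues below all CK libraries.

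Signalling proteins comprised 3 annotated members with unlike patterns. TraesCS2A02G285300 is matched to ACR5 and ACR6, Arabidopsis proteins with ACT domains, a fold that commonly binds amino acids. It had 9.55, 13 and 5.17 TPM in CK, 47.2 TPM in root and 1.1 TPM in embryo, and root was above all CK libraries. TraesCS4A02G245500, matched to the calcineurin B-like calcium sensors CBL2 and CBL3 of Arabidopsis and OsCBL2 of rice, had 5.68, 28.2 and 5.44 TPM in CK, 14.9 TPM in root and 6.54 TPM in embryo, both within the CK range. TraesCS5A02G118800, matched to rice OsCBSCBSPB4, which carries CBS and PB1 domains, had 20.1, 53.2 and 10.2 TPM in CK, 11 TPM in root and 6.3 TPM in embryo.

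Metabolic enzymes gave 4 annotated members, 3 of which were at least 2-fold higher in CK spike than in root, and 1 of which was at least 2-fold higher in root. That one, TraesCS1B02G223300, is matched to proline dehydrogenase of Arabidopsis and rice (OsProDH), the mitochondrial enzyme that starts the breakdown of proline. It had 67.4, 38.5 and 63.1 TPM in CK, 114 TPM in root and 2.5 TPM in embryo, a clear order of root, spike and embryo. TraesCS6A02G173600, matched to the UGT84A glucosyltransferases, which in Arabidopsis join glucose to phenylpropanoid acids, had 19.2, 6.31 and 6.42 TPM in CK, 3.8 TPM in root and 7.13 TPM in embryo. The plant peroxidase TraesCS2A02G263500 had 19.1, 11.9 and 19.6 TPM in CK, 7.49 TPM in root and 3 counts in embryo. TraesCS3A02G194300, an oxoglutarate and iron-dependent dioxygenase by its domains, had 47.9, 208 and 23.2 TPM in CK, 13.4 TPM in root and 22.1 TPM in embryo, and its CK replicates 1 and 3 lay closer to the other tissues than replicate 2 did.

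Organelle, chromatin, secretion and translation proteins made up the other role groups. TraesCS5A02G074200, matched to the mitochondrial AAA ATPase AATP1 of Arabidopsis, had 26.9, 13.4 and 28.5 TPM in CK, 3.92 TPM in root and 1.39 TPM in embryo, and every CK library was above both. TraesCS2A02G171700, matched to PEX10, a ring-finger protein needed to build peroxisomes, had 7.81, 18.7 and 4.34 TPM in CK, 9.09 TPM in root and 8.1 TPM in embryo, so neither tissue left the CK range. TraesCS5A02G119000, matched to SGF29, a histone-reading subunit of the SAGA coactivator, had 10.5, 59.5 and 7.11 TPM in CK, 21.9 TPM in root and 15.7 TPM in embryo. Here only CK replicate 2 exceeded the other tissues. The t-SNARE TraesCS5A02G096800, of a family that fuses vesicles with membranes, had 5.42, 19.7 and 7.43 TPM in CK, 20.8 TPM in root and 0.49 TPM in embryo. The phenylalanyl-tRNA synthetase TraesCS5A02G096700, which charges tRNA, had 17.3, 67.5 and 19.7 TPM in CK, 8.14 TPM in root and 6.38 TPM in embryo, below all CK libraries. TraesCS5A02G074800, with the W2 and nucleotidyl transferase domains, had 5.94, 18.8 and 3.46 TPM in CK, 6.3 TPM in root and 5.1 TPM in embryo. The other 6 annotated members fell in no role group, and 4 of them were at least 2-fold higher in CK spike than in root and 5 than in embryo.

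**Figure D3:**
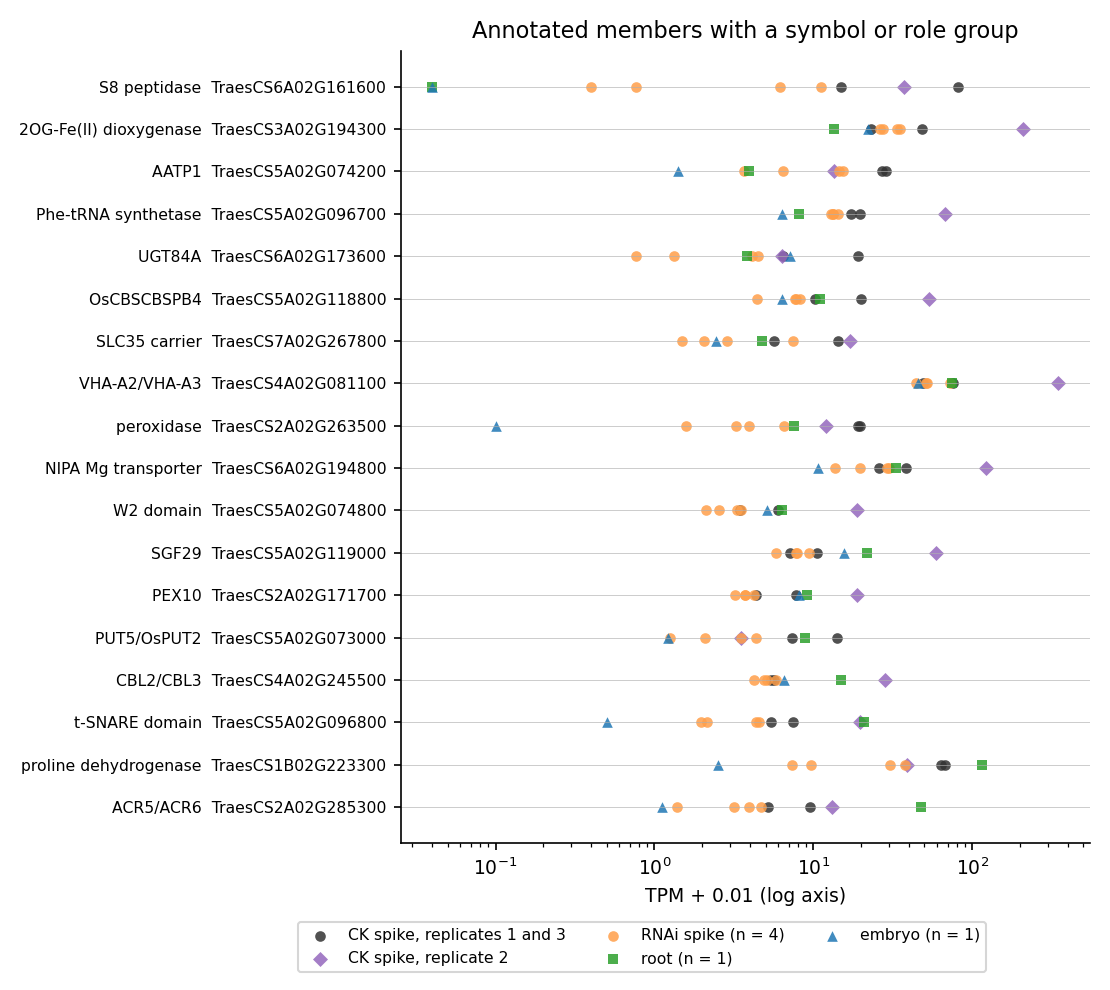
Level of 18 annotated members in each library (x axis, TPM + 0.01, log axis) for CK spike replicates 1 and 3 (black), CK replicate 2 (purple diamonds), 4 RNAi spikes (orange), root (green square) and embryo (blue triangle). CK replicate 2 lies far to the right in several rows, as for TraesCS4A02G081100 at 348 TPM against 75.8 and 49.1 TPM.

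Members were concentrated in the A subgenome, from which the study's list was largely drawn. The A subgenome held 228 of the 250 members (91.2%) against 33.6% of expressed genes, the B subgenome 16 and the D subgenome 6. Every A chromosome had members, with 38 on 1A, 35 on 2A, 34 on 3A, 23 on 4A, 27 on 5A, 34 on 6A and 37 on 7A. As a share of expressed genes the range ran from 1.29% on 4A to 2.49% on 6A. The same minimum kept 228 of 289 listed A genes, 16 of 21 B genes and 6 of 8 D genes. Spike exceeded root at least 2-fold in 57 of the A members (25%), 4 of the B members (25%) and 1 of the D members (16.7%), against 33.6%, 31.2% and 32.8% of expressed genes of the same subgenomes. The 24 annotated members had 7 on 5A, the chromosome of the knockdown target, 6 on 2A, 3 on 6A and between 1 and 2 on 1A, 1B, 3A, 4A and 7A. Since these genes were chosen as reduced in the RNAi lines, their spread over chromosomes is a description. Other genes of 5A were also low in RNAi line 4, with a median log2 difference from CK of -0.433.

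Members often lay near each other, and distance to an element was part of how the study chose them. When members whose identifier numbers differ by at most 1000 were joined, 145 fell into 56 runs and 105 had no neighbouring member. Runs of at least 4 numbered 7 and held 32 members. The longest ran from TraesCS6A02G160800 to TraesCS6A02G162300 and held 6 of the 8 expressed genes in its span, TraesCS6A02G161600 among them. Its members ranged from -0.83 to 5.46 in the log2 ratio of spike to root. A run of 5 reached from TraesCS2A02G152000 to TraesCS2A02G154100 and held TraesCS2A02G153300, with ratios from -3.31 to 2.65. Another run of 5, from TraesCS7A02G267300 to TraesCS7A02G268800, ranged from -1.21 to 3.49. The 4 runs of 4 lay from TraesCS1A02G142400 to TraesCS1A02G143100, from TraesCS1A02G169100 to TraesCS1A02G170200, from TraesCS1A02G291400 to TraesCS1A02G292200 and from TraesCS7A02G348900 to TraesCS7A02G349900. Within the first of these TraesCS1A02G142400 had 71.2, 29.3 and 82.1 TPM in CK and 1.64 TPM in root, whereas TraesCS1A02G143100 had 3.23, 10 and 3.19 TPM in CK and 11.9 TPM in root.

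Neighbouring members were compared in the direction of the ratio of spike to root, without a test. Of 89 pairs of members next to each other within a run, 48 (53.9%) had the same sign. This compares with 53.2% of 35892 pairs of adjacent genes among all expressed genes and 53.4% of 12105 in the A subgenome. Member pairs could have other expressed genes between them, so the pairs were not matched for distance. The median absolute difference between pair members was 1.39 on the log2 scale for members and 1.38 for all expressed genes.

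In the comparison of RNAi lines with CK, which asks whether predicted targets change when the ELE-RNA is knocked down, 5 members were lower and 17 higher. Calls required an absolute log2 fold change over 1 and an unadjusted p under 0.05 in limma on log2(FPKM + 1). The share lower was 2% of members against a background of 4.31% of 55551 genes, and the share higher 6.8% against 5.23%. These genes had a mean of at least 0.5 FPKM, and in the fit at the members' own minimum of 2 FPKM 4 members (1.6%) were lower against 3.89% of 37290 genes and 17 (6.8%) higher against 6.71%. That minimum was a mean over CK and RNAi libraries together, so a gene could pass it only through the group where it was high. TraesCS3A02G072600, called higher, had means of 0.787 FPKM in CK and 4.43 FPKM in the lines. The counts of members are therefore descriptions. After Benjamini-Hochberg adjustment over all genes 0 members were lower (background 0.598%) and 0 higher (background 0.0306%), while 32 had an unadjusted p under 0.05 (12.8%, background 15%). The median log2 fold change was 0.28 over members, 0.17 over all genes tested and 0.25 over those at the members' minimum. All RNAi lines were below all CK libraries in 9 members (3.6%, background 4.72%) and above in 26 (10.4%, background 10.8%).

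All 5 members called lower belonged to the 24 annotated genes, which the study had chosen from this contrast, and all 17 called higher were among the other 226. Setting apart genes chosen as reduced leaves few to be called lower, so the counts and medians of the 226 are descriptions only. The 226 held 0 genes called lower in limma on FPKM and 1 in limma on TPM. On recovered reads 0 were lower in edgeR and 0 in DESeq2. Of the 226, 12 were called higher in edgeR, 14 in DESeq2 and 13 in limma on TPM. Over all genes the shares called higher in these fits were 4.43%, 3.69% and 4.46%. All genes include those below the members' minimum here, so the shares are not matched for expression. The median log2 fold change was -0.75 over the annotated members and 0.36 over the others on FPKM, and -1.14 and 0.08 on TPM. With TPM the counts over all 250 became 15 lower (6%, all genes 8.01%) and 13 higher (5.2%, all genes 4.46%), with 0 after adjustment in either direction. Without CK replicate 2, 8 members were lower (3.2%, all genes 5.87%) and 3 higher (1.2%, all genes 1.46%), and the median was 0.01 (all genes 0.03).

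Of the 5 members called lower, those with the groups apart and the smallest p were TraesCS6A02G161600 and TraesCS5A02G118800. The peptidase TraesCS6A02G161600 had 43.3, 11 and 8.83 FPKM in CK and 0.231, 0.436, 6.43 and 3.42 FPKM in the RNAi lines, a log2 fold change of -2.65 (SE 0.73). RNAi lines 1 and 2 were far below lines 3 and 4, and CK replicate 1 was far above the other CK libraries. TraesCS5A02G118800, the OsCBSCBSPB4 match, had 10.7, 15.6 and 5.99 FPKM in CK and 4.52, 4.74, 4.46 and 2.44 FPKM in the lines (log2 fold change -1.17, SE 0.37). Because both belong to the annotated list, these are descriptions.

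Among members called higher with the groups apart, the smallest p belonged to TraesCS3D02G247300 and TraesCS7A02G231000, which the sources used here do not annotate. TraesCS3D02G247300 had 5.67, 9.68 and 11 FPKM in CK and 30.4, 30.3, 19.9 and 15.9 FPKM in the lines. Its log2 fold change was 1.36 (SE 0.38), with an adjusted p of 0.215 in limma. TraesCS7A02G231000 had 1.03, 0.61 and 6.23 FPKM in CK and 8.44, 7.58, 9.93 and 7.71 FPKM in the lines, with a log2 fold change of 1.71 (SE 0.49) and an adjusted p of 0.22 in limma. On FPKM both were above every CK library in 4 of 4 lines, and neither passed the adjusted threshold. On TPM the groups of TraesCS3D02G247300 overlapped, at 10.6, 33 and 18.6 TPM in CK and 51.9, 52.3, 34.3 and 28.8 TPM in the lines. Those of TraesCS7A02G231000 did not, at 1.93, 2.08 and 10.6 TPM in CK and 14.4, 13.1, 17.1 and 14 TPM in the lines. In the annotated genes matched to proline dehydrogenase and ACR5/ACR6, which were not called on FPKM, the values were 36, 11.3 and 37.1 FPKM in CK against 4.28, 21.9, 17.7 and 5.36 FPKM for TraesCS1B02G223300, and 5.1, 3.81 and 3.04 FPKM against 0.803, 1.84, 2.7 and 2.17 FPKM for TraesCS2A02G285300. The groups overlapped in the first and not in the second. On TPM they overlapped in neither, and the log2 fold changes were -1.62 and -1.25, past the call thresholds, as a description.

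Members moved with the other genes of their chromosome in single lines. On 6A, the median log2 difference of 34 members from the CK mean was -0.50 in RNAi line 1 and -0.46 in RNAi line 4, and 0.48 and 0.51 in lines 2 and 3. The 2075 other genes tested on 6A gave -0.45, -0.45, 0.18 and 0.16 in lines 1, 4, 2 and 3. In line 1, 26 of 34 members (76.5%) and 77% of the other genes on 6A were below the CK mean. On 5A, members had a median of -0.30 in line 4 and the other genes -0.43, whereas lines 1 to 3 had 0.55, 0.49 and 0.58 in members and 0.26, 0.23 and 0.20 in the other genes. Of the 5 members called lower, 1 was on 5A and 2 were on 6A. When the shift of the other genes of a chromosome was taken off each library, an alternative added after the data were seen, 4 members were lower and 17 higher, and TraesCS6A02G173600 on 6A moved from -1.19 to -0.89.

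**Figure D4:**
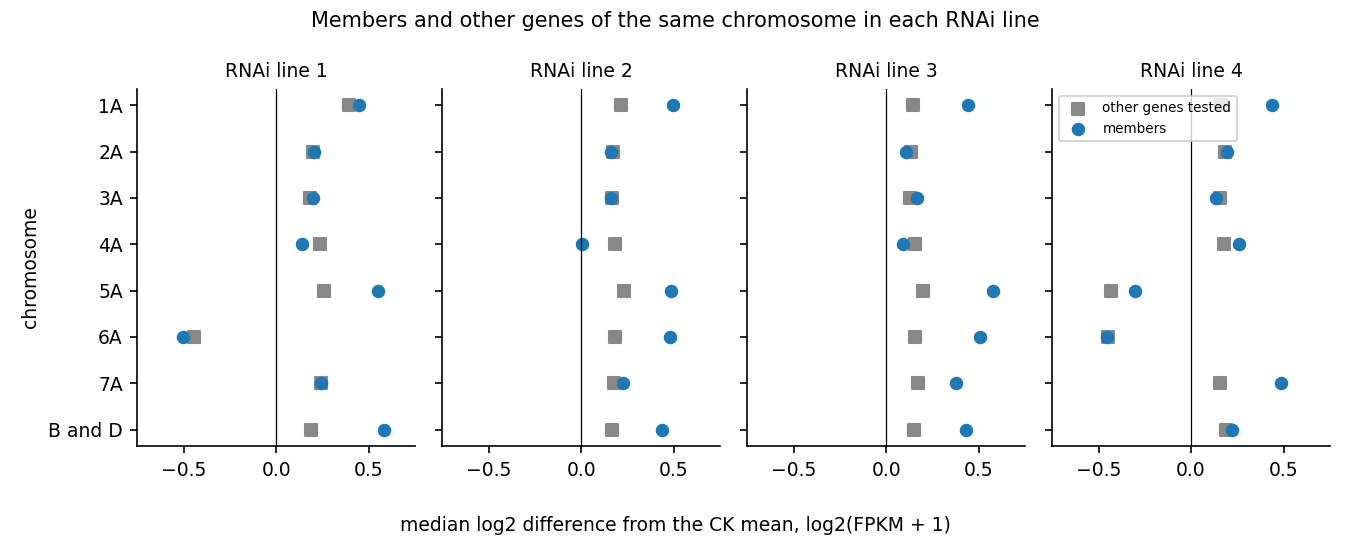
Median log2 difference from the CK mean on log2(FPKM + 1) (x axis) in each of 4 RNAi lines for members (blue circles) and other genes tested (grey squares) of each A chromosome and of B and D together. Members and other genes of 6A are both below 0 in lines 1 and 4 and above 0 in lines 2 and 3, and those of 5A are below 0 in line 4.

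CAGE, a sequencing assay of transcript start sites, could be read in Chinese Spring tissues for members on chromosome 1A, where the study's list of start clusters was readable up to position 469587724. Of 38 members on 1A, 29 had a listed cluster in the readable part, 41 clusters in all. The members without one all had higher identifier numbers than these, from TraesCS1A02G288900 on, while the last of the 29 was TraesCS1A02G264200. Whether those later members have a start cluster could not be read. Since correlated CAGE signal was part of the choice of targets, the tags are a description. Members summed to 742 and 575 tags per 1000000 in the 2 spike libraries, 268, 420 and 245 in embryo, 329 and 328 in root and 81.2, 118, 114 and 94.8 in seedling. Spike libraries were above all others, and seedling libraries below all others. Over 691 expressed 1A genes with a listed cluster, the mean per tissue summed to 11677 in spike, 11007 in root, 7614 in seedling and 5184 in embryo. Spike was thus also highest over these genes, while embryo was lowest. By the mean per tissue, 14 members were highest in spike (48.3%, background 33.3% of 691 expressed 1A genes with a listed cluster), 14 in root (48.3%, background 35.5%), 1 in embryo (3.45%, background 10.1%) and 0 in seedling (background 21.1%).

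A single gene set much of the spike total. TraesCS1A02G120000 had 381 and 272 tags per 1000000 in spike, 86.1, 247 and 113 in embryo, 92 and 90.3 in root and 13.6, 13.7, 59.3 and 22.4 in seedling. Without it the members summed to 361 and 302 in spike and 237 and 238 in root. By RNA-seq, with spikes of another cultivar, the same gene had 5.89, 5.81 and 6.11 TPM in CK spike, 4.8 TPM in root and 6.26 TPM in embryo, a narrow range. TraesCS1A02G105400 had 137 and 77.5 tags per 1000000 in spike, 74.1, 67.7 and 88.3 in embryo and 76.6 and 89.5 in root, and seedling lay between 3.68 and 20.4. TraesCS1A02G120200 had 75.3 and 92.9 in spike, 56.7, 44.8 and 19.3 in embryo, 22.5 and 22.2 in root and between 0.982 and 38 in seedling. The tags of TraesCS1A02G105400 overlapped between spike, embryo and root, and those of TraesCS1A02G120200 were highest in both spike libraries.

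**Figure D5:**
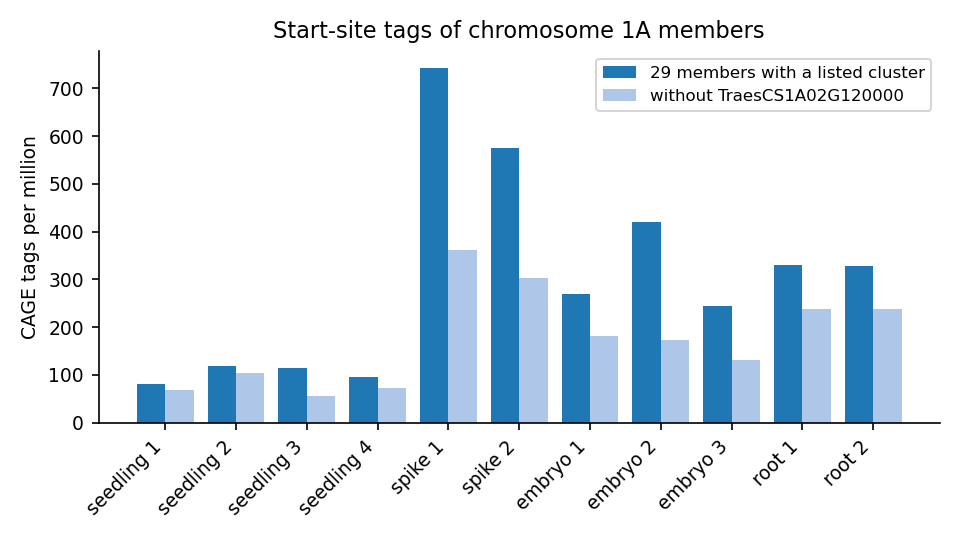
CAGE tags per 1000000 (y axis) on listed start clusters of 29 chromosome 1A members in each library, with all of them (dark bars) and without TraesCS1A02G120000 (light bars). The spike libraries hold 742 and 575 with it and 361 and 302 without it.

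Most 1A members with a listed start cluster had active histone marks of JW1 spikes on at least 1 such cluster. An H3K4me3 peak, the mark of active promoters, overlapped a listed cluster in 28 of 29 members (96.6%, background 88.1%), and an H3K9ac peak, a mark of active transcription, in 24 (82.8%, background 72.9%). Both marks were present in 24 members (82.8%, background 72.8%). The member without either peak was TraesCS1A02G138200, named after its values were seen, and TraesCS1A02G125500, TraesCS1A02G132400, TraesCS1A02G142400 and TraesCS1A02G170100 had H3K4me3 alone. There was 1 peak list for each mark, so the shares carry no replicate error.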

How the data were processed

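Spike, root and embryo RNA-seq, CAGE and spike ChIP-seq of wheat were used. For spike RNA-seq the authors trimmed reads with Trim Galore 0.6.4, mapped them with HISAT2 2.1.0 and counted genes with featureCounts, per the submitters' processing notes. CAGE and ChIP-seq reads were mapped with other programs, per the study's methods. Spike values were deposited as FPKM, and root and embryo values as read counts per gene. CAGE values were deposited as counts of 5′ ends per position, and the deposited peak lists hold positions whose coordinates were used in place of a score.

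Gene lengths were recovered as the length at which FPKM of all 7 libraries, to 6 significant digits, gives whole reads. This gave a length for 82399 of 82611 genes above 0 (107891 in the files). Library totals were fitted for CK replicates 1 and 2 and RNAi line 4. Lengths served for TPM, and 3.18% of root and 12.26% of embryo counts fell on genes without one. Most genes without a length were at 0 in all spike libraries. Leaving them out raises the root and embryo TPM of the other genes, by these shares more in embryo than in root. A pseudocount of 1 was added to TPM and FPKM before log2, so fold changes of low genes are understated. RNAi lines and CK were compared with limma 3.58.1 (R 4.3.3, mean FPKM of at least 0.5), with edgeR 4.0.16 and DESeq2 1.42.0 on recovered reads as alternatives. Replicate numbers did not pair the libraries. The scripts were tested on simulated data. Intervals on counts are exact Poisson intervals at 95%. The study's own fold changes and p-values beside its gene lists were not used.

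The members and lists were chosen with earlier results of these data known. Genes were named by rule: matches with a symbol or role group, the 2 largest and 2 smallest ratios of spike to the higher other tissue, the 2 higher and 2 lower members of smallest p with groups apart, ends of runs of at least 4, the genes next to the minimum and the 3 members with most CAGE tags. No member was found in the RefSeq gene table, so names come from the study's annotation.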

Additional observations from a re-analysis of the deposited data

Results flagged for a closer look

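Among 52 groups of 4 libraries, 7 had 1 library far from the other 3. The cutoff is one that about 1 group in 20 passes for independent, normally distributed values. These groups share libraries, and no chance rate was measured for them. RNAi line 1 had 20.2 FPKM of TraesCS1A02G120200 and 2.51 FPKM of TraesCS1A02G143100, the first below and the second above the other 3 lines. RNAi line 4 had 2.44 FPKM of TraesCS5A02G118800 and 2.65 FPKM of TraesCS7A02G349900, below the other 3 lines. RNAi line 2 had 7.36 FPKM of TraesCS7A02G348900, above the other 3 lines. The median difference from CK over members of 5A was -0.302 in RNAi line 4, below the other lines, where the other genes of that chromosome were also low. On 1A the median was 0.499 in RNAi line 2, in a narrow range over the 4 lines. The cause of these gaps was not tested.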

How the results depend on the processing

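Tissue counts of members kept within 1.5 times of their values under another scale, a pseudocount of 0.1, all 7 spike libraries or a CK library left out. With size factors, 63 members were higher in spike than in root (background 33.7%). With TPM over genes above 0 in at least 5 spike libraries, an alternative added after the data were seen, there were 60 (background 31.3%). At 4-fold, spike exceeded root in 30 members (background 19%) and embryo in 49 (22.4%), root exceeded spike in 9 (2.76%) and embryo in 28 (8.49%), and embryo exceeded spike in 7 (2.37%) and root in 6 (3.66%). Leaving out a CK library gave 58 to 65 members with spike over root, 80 to 96 with spike over embryo, 39 to 49 with root over spike and 35 to 39 with embryo over spike. A minimum of 5 FPKM left 166 members, and leaving out a spike library gave 244 to 251.

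The knockdown counts depended on the fit, and the cause was not tested. Members lower numbered 8 with a pseudocount of 0.1 (3.2%, all genes 5.47%), 15 with array weights (6%, all genes 9.68%) and 15 with TPM (6%, all genes 8.01%). On recovered reads they numbered 20 in edgeR (8%, all genes 11.4%) and 24 in DESeq2 (9.6%, all genes 9.68%). All genes were 67408 with at least 10 summed reads in edgeR and 82399 with any read in DESeq2. These include genes below the members' minimum, so the shares are not matched for expression. With a library left out members lower numbered 3 to 8 (1.2% to 3.2%, all genes 3.01% to 5.87%). Members higher ranged from 3, without CK replicate 2 (1.2%, all genes 1.46%), to 33, without CK replicate 3 (13.2%, all genes 10.7%). After adjustment, array weights gave 18 members lower and 26 higher, beside 7148 and 6453 of all 55551 genes. DESeq2 gave 3 members lower after adjustment, beside 2390 of all 82399 genes. Leaving out a library gave 0 members lower and 0 to 1 higher after adjustment, beside 168 to 781 lower and 1 to 60 higher of all 55551 genes. The array weights gave CK replicate 2 a weight of 0.141 and CK replicate 1 a weight of 4.58. The median log2 fold change was 0.11 after quantile normalization, 0.049 with array weights, 0.053 in edgeR, -0.001 in DESeq2, 0.008 with TPM and 0.012 to 0.433 with a library left out. TPM and the fit with chromosome shifts taken off were chosen after the data were seen.

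With the replicate number as a block, 31 members were higher (12.4%, all genes 8.55%) and 4 lower (1.6%, all genes 5.69%). After adjustment 1 member was higher, beside 134 of all 55551 genes. Deviations of CK and RNAi libraries of the same number correlated at -0.084, -0.048 and 0.089, so the numbers did not pair them.

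With 200 bp added around start clusters, tags per 1000000 on members were 132 in seedling and 403 in root. With peaks within 500 bp counted, 100.0% of the 29 members with a listed cluster had an H3K4me3 peak (background 94.5%). For annotated members, leaving out CK replicate 2 left 7 higher in spike than in root and 15 higher in spike than in embryo. Root and embryo had 1 library each, which limits every statement on tissues to those libraries.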
